A study of Saccharomyces cerevisiae with 2 samples.

Results

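A tandem intergenic region, here called a tandem gap, is the stretch between 2 neighbouring open reading frames (ORFs) that are read in the same direction. It holds the 3′ end of the gene before it and the promoter of the gene after it. The rule for members used position alone, without read values, but was set with earlier results of these data known. Members were 100 bp segments of the 16 nuclear chromosomes that overlapped no ORF of the deposited ORF table. Their nearest ORFs on both sides lay on the same strand. Segments within 20 kb of a chromosome end and those of the U1 and U2 snRNA loci were left out. This gave 12021 of 121639 segments (9.88%), which formed 2580 of 5047 intergenic gaps. The others were 1369 divergent gaps, which face the starts of both ORFs, and 1098 convergent gaps, which face both 3′ ends. Tandem gaps were 106 to 8814 bp wide with a median of 402 bp, and a median gap held 3 whole segments.

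The data are 1 RNA-seq library from trf4Δ cells and 1 from wild-type cells, both diploids of the SK1 background, which sporulates synchronously, collected after 6 h of meiosis. The trf4Δ diploid lacks both copies of TRF4, and the wild type carries them. In both, Cbc2, a subunit of the nuclear cap-binding complex, carried a TAP tag, and RNA associated with it was purified, so the reads describe capped nuclear RNA rather than total RNA. Both strains also carry mutations in HO, LYS2, URA3, LEU2, HIS3 and TRP1. The acetate cultures grown before meiosis were started at a different cell density for each genotype, and the libraries were run on separate lanes, so growth, lane and genotype cannot be told apart. With 1 library per genotype no difference has a replicate check and no p-value is given.

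Pervasive transcription of yeast intergenic DNA yields cryptic unstable transcripts (CUTs), short capped RNAs that often start in the nucleosome-free region of a promoter. The Nrd1–Nab3–Sen1 complex ends such transcription early. TRAMP, in which Trf4 is a poly(A) polymerase, then hands the RNA to the nuclear exosome for degradation. In a tandem gap the promoter of the second gene can fire towards that gene or backwards over the 3′ end of the first gene, and the first gene can be read through into the gap. The same machinery trims the 3′ ends of small nucleolar RNAs (snoRNAs), some of which have their own genes in such gaps. The library preparation did not mark strand, so the reads do not tell these directions apart.

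The promoter sequences below belong to 4 of the tandem gaps described further on, and are shown because the segment with most trf4Δ reads lay within or next to the printed bases. They are the 300 bases before the start codon of the gene after the gap, written in that gene's direction, from RefSeq R64, the S288C genome. The signal coordinates in the text are those of SGD1.01, the build of the deposited tables, so positions are compared only as distances from the start codon. All 4 gaps have the same length in both. Capitals mark GTAG and TCTTG on either strand (CTAC and CAAGA when read on the other strand), the core letters of Nrd1 and Nab3 binding sites.
TRS31 (chrIV:1403022-1403321, + strand): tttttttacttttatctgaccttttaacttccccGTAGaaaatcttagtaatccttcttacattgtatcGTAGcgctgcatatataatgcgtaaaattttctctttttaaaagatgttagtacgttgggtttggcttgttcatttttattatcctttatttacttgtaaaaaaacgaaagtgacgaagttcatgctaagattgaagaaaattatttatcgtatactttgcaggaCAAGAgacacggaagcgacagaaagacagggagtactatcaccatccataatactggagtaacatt
POS5 (chrXVI:191106-191405, + strand): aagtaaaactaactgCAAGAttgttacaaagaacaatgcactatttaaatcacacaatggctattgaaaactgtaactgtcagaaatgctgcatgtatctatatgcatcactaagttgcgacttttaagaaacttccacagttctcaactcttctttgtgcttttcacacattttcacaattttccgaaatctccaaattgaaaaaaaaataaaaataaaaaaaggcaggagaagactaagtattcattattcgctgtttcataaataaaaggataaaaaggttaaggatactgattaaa
MRC1 (chrIII:22107-22406, - strand): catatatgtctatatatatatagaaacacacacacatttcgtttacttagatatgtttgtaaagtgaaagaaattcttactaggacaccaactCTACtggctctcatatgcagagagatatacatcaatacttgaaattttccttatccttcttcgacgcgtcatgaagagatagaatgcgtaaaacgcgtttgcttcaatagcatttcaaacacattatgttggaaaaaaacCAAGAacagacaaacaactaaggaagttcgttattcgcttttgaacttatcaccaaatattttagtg
MLH2 (chrXII:214457-214756, - strand): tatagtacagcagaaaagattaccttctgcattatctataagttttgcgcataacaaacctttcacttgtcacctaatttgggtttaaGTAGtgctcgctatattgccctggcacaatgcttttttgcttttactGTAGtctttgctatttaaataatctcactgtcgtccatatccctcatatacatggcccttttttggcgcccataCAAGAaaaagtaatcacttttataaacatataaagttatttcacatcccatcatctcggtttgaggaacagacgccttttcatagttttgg
In trf4Δ the highest segment lay 213 to 312 bp before the start codon of TRS31, 204 to 303 bp before POS5, 194 to 293 bp before MRC1 and 143 to 242 bp before MLH2. The windows held 2 GTAG and 1 TCTTG matches for TRS31, 0 and 1 for POS5, 1 and 1 for MRC1, and 2 and 1 for MLH2. Their values are given with the individual gaps.

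Outside the 37S pre-rRNA, where the table has 0 reads, segments summed to 29687088 reads in trf4Δ, against 22092372 in wild type, so each wild-type read was weighted by 1.344. These are the normalised reads below. On this scale the median log2 difference of all nuclear segments with enough reads was -0.98, so most of the genome, chiefly ORFs, had fewer reads in trf4Δ. TRF4 itself, which the ORF table calls PAP2 (YOL115W), kept 1 read in trf4Δ, against 346 reads (465 normalised) in wild type, so the labels hold at the targeted gene. Intervals are given at 95% and take in counting error alone: PCR duplicates, and border reads that enter 2 segments, are not separate molecules. The 2 libraries are bulk RNA, in which a smaller share of cells with a transcript and less of it per cell cannot be told apart.

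Tandem gaps held more of the trf4Δ library than of the wild-type library. Their segments took 10.2% of trf4Δ reads (Wilson interval 10.17 to 10.19%, 3021692 reads), against 4.52% of wild-type reads (4.51 to 4.53%, 998933 reads), a ratio of 2.25 after normalisation. Divergent gaps took 10.5% and 3.57%, and convergent gaps 2.48% and 1.71%. One tandem gap, YCF1-YDR133C, held 1.52% of the tandem reads of trf4Δ but 25.3% of those of wild type. Without it, tandem gaps took 10.0% of the trf4Δ library and 3.38% of the wild-type one, a ratio of 2.97. Reads were concentrated in few gaps: 67 of the 2580 held 50% of the tandem reads in trf4Δ, and 62 did in wild type. Unscaled, a median gap had 128 reads in trf4Δ, against 64 in wild type, and 33 gaps had no read in either library.

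Of the 2580 tandem gaps, 2082 had a mean over both libraries of at least 10 normalised reads per segment and were compared. The reads of 594 of them (28.5%) were more than 4-fold higher in trf4Δ, and those of 41 (1.97%) more than 4-fold lower. Over all intergenic gaps, tandem ones included, 25.1% were higher and 2.77% lower. The median log2 difference of tandem gaps was 0.69, with quartiles of -0.56 and 2.28 and a range of -3.05 to 9.18, and 1323 gaps (63.5%) lay above 0. In the 1161 gaps that could be compared without their first and last segment, the median was 1.18. Beyond 16-fold, 145 tandem gaps were higher and 0 lower. Tandem gaps resembled divergent gaps, of which 303 of 1083 (28.0%) were higher with a median of 0.70, more than convergent gaps, of which 89 of 769 (11.6%) were higher with a median of -0.33. Among tandem gaps, 308 of 1061 (29.0%) between ORFs on the + strand and 286 of 1021 (28.0%) between ORFs on the - strand were higher. By chromosome the share ranged from 24.0% of 50 gaps on chromosome VI to 39.1% of 92 on chromosome VIII. When the median log2 difference of all nuclear segments was set to 0 instead, which raises every difference by 0.98, 903 of 1967 tandem gaps (45.9%) were higher and 1 was lower, against 42.0% and 0.0546% of all gaps. Any difference given here between -0.98 and 0 lies above 0 on that scale, and ORF values near -0.98 lie near the median of the genome.

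**Figure D1:**
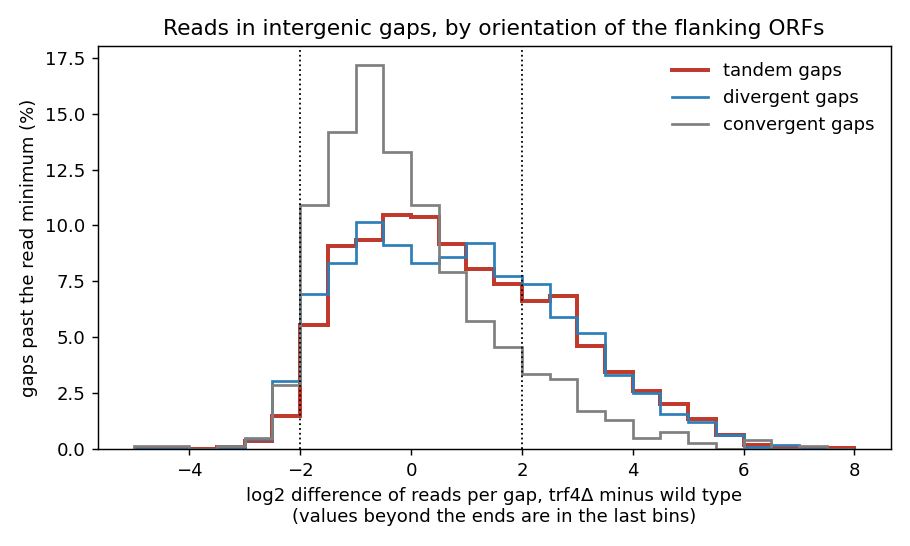
Percent of gaps past the read minimum (y axis) by log2 difference of their reads, trf4Δ minus wild type (x axis, bins of 0.5), for tandem, divergent and convergent gaps, with dotted lines at 4-fold. The tandem and divergent curves lie close together, with medians of 0.69 and 0.70, while the convergent curve peaks below 0.

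The single segments gave the same picture. Of 8590 tandem segments past the minimum, 2764 (32.2%) were more than 4-fold higher in trf4Δ and 349 (4.06%) lower, with a median of 0.73, while over all nuclear segments 11.4% were higher and 14.6% lower. Segments in ORFs differed most from them, with 7.00% higher, 16.8% lower and a median of -1.17. A median tandem segment had 32 reads in trf4Δ, against 18.8 normalised in wild type. The higher tandem segments held 74.1% of the tandem reads of trf4Δ and 11.8% of those of wild type.

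**Figure D2:**
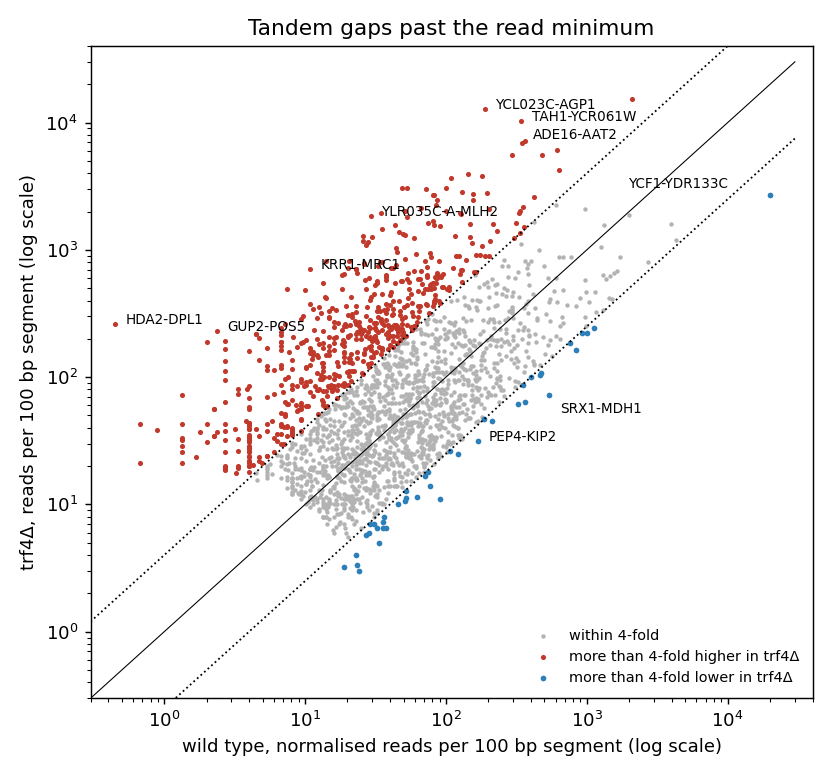
Each point is 1 of the 2082 tandem gaps past the read minimum, with trf4Δ reads per 100 bp segment (y axis, log scale) against normalised wild-type reads per segment (x axis, log scale). A gap without a read in a library is drawn at the floor of 3 reads, and dotted lines mark 4-fold. Of these gaps, 594 lie above the upper dotted line, 145 of them by more than 16-fold in all, and 41 lie below the lower one, none by more than 16-fold.

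Wider tandem gaps had higher differences. The median was 0.44 in 1087 gaps of 1 to 3 segments, 0.90 in 754 gaps of 4 to 9 segments and 1.04 in 241 gaps of 10 or more, and the share more than 4-fold higher was 26.7%, 29.8% and 32.8%. In divergent gaps of the same widths this share was 20.1%, 30.3% and 38.1%, and in convergent gaps 7.98%, 19.0% and 27.6%. The narrow gaps thus differed most between the classes. Median trf4Δ reads per segment were 26, 73.4 and 121 in the 3 width classes of tandem gaps, against 16.8, 38.7 and 53.4 normalised reads in wild type. Narrow gaps thereby also had fewer reads, and more of their segments lay next to an ORF, whose reads they can share. The part of either in their lower differences was not tested. At a minimum of 64 reads, the median of the widest class exceeded that of the narrowest by 0.97, against 0.60 at a minimum of 10.

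Within tandem gaps of at least 600 bp the excess of trf4Δ reads was lowest just before the start of the gene after the gap. The median log2 difference was 0.20 in the segments within 100 bp of the start codon, 0.80 at 100 to 200 bp, 1.16 at 200 to 300 bp and 1.24 at 300 to 400 bp, where 40.3% of segments were more than 4-fold higher. After the 3′ end of the gene before the gap it was 0.75 in the nearest 100 bp and 1.18 at 300 to 400 bp. Taken over 200 bp on each side, the median was 0.85 next to the 3′ end (1035 segments), 0.50 next to the start (964 segments) and 0.92 in between (3343 segments). In 202 gaps of this width that were more than 4-fold higher, the segment with most trf4Δ reads lay next to the 3′ end in 50 gaps, in the middle in 92 and next to the start in 60, each gap being divided into 3 equal parts. In the other 418 gaps these numbers were 154, 132 and 132. Peaks in the middle of the gap were thus more frequent among higher gaps (45.5%) than among the others (31.6%).

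The difference did not stop at the 3′ end of the gene before the gap. Along the last 1000 bp of the ORFs that end at a tandem gap, the median log2 difference climbed towards the gap, being -1.16 at 900 to 1000 bp from the end, -0.69 at 400 to 500 bp, -0.26 at 200 to 300 bp and 0.44 in the last 100 bp. In the last 100 bp a median segment had 196 reads in trf4Δ, against 114 normalised in wild type, while at 900 to 1000 bp from the end it had 38 in trf4Δ and 71.2 in wild type. ORF ends that face a convergent gap behaved otherwise, with medians of -1.29 at 400 to 500 bp, -1.26 at 200 to 300 bp and -1.05 in the last 100 bp. Over the last 300 bp of the ORF the median was 0.07 at tandem gaps (5961 segments, 24.3% more than 4-fold higher) and -1.17 at convergent gaps (4313 segments, 6.21% higher). The side of the start showed no such extension. In the first 300 bp of the ORF after a tandem gap the median was -1.30 (6035 segments, 3.28% higher), and in the first 300 bp next to a divergent gap it was -1.29 (6209 segments, 4.72% higher). Segments at an edge share some reads with the gap. Without them, at 200 to 300 bp from the end, the tandem median still exceeded the convergent one by 1.00, against 1.25 over 300 bp.

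**Figure D3:**
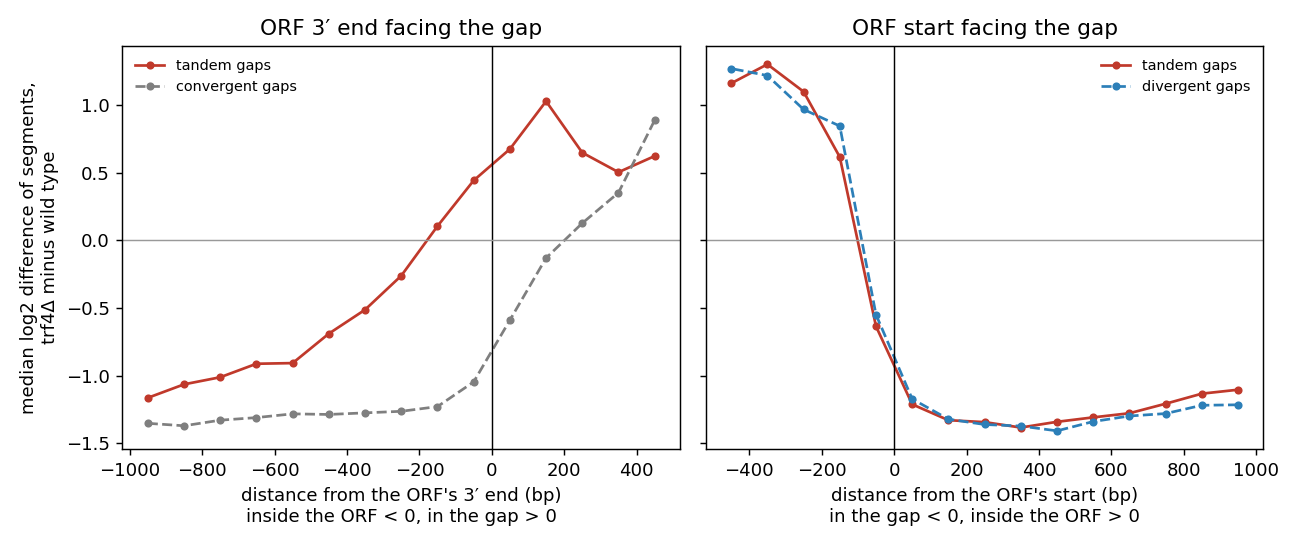
Median log2 difference, trf4Δ minus wild type, of 100 bp segments past the read minimum (y axis) by distance in bp (x axis) from the ORF 3′ end (left) or the ORF start (right) that faces the gap, for all gaps past the minimum. At 3′ ends the tandem curve lies above the convergent one over the last 1000 bp of the ORF, at 0.44 against -1.05 in the last 100 bp, while at starts the tandem and divergent curves nearly coincide.

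The ends of ORFs before higher gaps had the larger values. Before higher gaps (584 with segments past the minimum there) the median over the last 300 bp of the ORF was 1.38, with 39.1% of segments higher, and before the other gaps -0.37, with 18.4% higher. At convergent gaps the same medians were 0.02 and -1.26. In the first 300 bp of the ORF after a tandem gap they were -0.93 and -1.40. Since neighbouring segments share reads and often a transcript, these values are not independent of the gap.

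CUTs were called as regions of at least 300 bp built of 100 bp segments that exceeded wild type by more than 4-fold, those with starts up to 300 bp apart being joined, with a mean log2 trf4Δ read count above 6. Of the 2580 tandem gaps, 704 (27.3%) overlapped a CUT, against 22.4% of all intergenic gaps, 24.0% of divergent gaps and 8.93% of convergent gaps. Of 1573 CUTs, 715 (45.5%) overlapped a tandem gap, a class that makes up 2580 of the 5047 intergenic gaps. These 715 CUTs had sizes of 300 to 2800 bp and a median of 500 bp. They formed 723 pairs of a CUT and a tandem gap. In 422 pairs (58.4%) the CUT ran over the ORF before the gap only, in 71 (9.82%) over the ORF after the gap only, in 40 (5.53%) over both, and in 190 (26.3%) it stayed in the gap. Counting each side by itself, 63.9% of the pairs had a CUT over the ORF before the gap and 15.4% over the ORF after it. At divergent gaps a CUT ran over an ORF start in 20.8% of 684 pairs of a CUT and an edge of the gap, and at convergent gaps over an ORF 3′ end in 42.6% of 204 such pairs. Any overlap was counted, and a CUT of at least 300 bp cannot stay in a narrower gap. With at least 100 bp over the ORF, the tandem shares were 54.9% before and 8.44% after the gap. The divergent and convergent shares were then 12.6% and 30.4%. With at least 300 bp, the tandem shares were 30.3% and 2.90%. Where it ran over the ORF before a tandem gap, it covered a median of 288.5 bp, or 21.2% of the ORF, and where it ran over the ORF after the gap, 111 bp, or 10.2%. Among the 594 higher gaps, 459 had a CUT and 135 did not, and 245 gaps had a CUT but were not more than 4-fold higher as a whole.

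The reads of whole ORFs differed on the same side. ORFs before a higher gap had a median log2 difference of 0.46, and 21.2% of 581 were more than 4-fold higher, against a median of -0.74 and 9.92% of 1461 before the other gaps. Over all 6195 ORFs with a mean of at least 64 normalised reads the median was -0.97 and 8.04% were higher. ORFs after a higher gap had a median of -0.66, with 10.1% of 582 higher, against -1.08 and 6.25% of 1471 after the other gaps. Most of the calls were in ORFs that a CUT overlapped, and CUTs were called from the same reads. Without these ORFs, 2 of 265 ORFs before a higher gap and 0 of 415 after one were higher, with medians of -0.76 and -1.06. Across gaps the difference of the gap and that of the ORF before it had a Pearson r of 0.32 and a Spearman rho of 0.33 over 2042 gaps, and for the ORF after it 0.20 and 0.25 over 2053 gaps. Both measures come from the same 2 libraries, and ORFs and gaps share border reads.

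The tandem gap with most trf4Δ reads was YCL023C-AGP1 (chromosome III, 78001 to 78900), before the amino acid permease gene AGP1. It had 114497 reads in trf4Δ, against 1276 (1715 normalised) in wild type, a log2 difference of 6.06. Nearly all trf4Δ reads lay at the far end from AGP1, with 81887 in the segment at 881 to 980 bp before its start and 31737 in the next one, while the segments 381 to 680 bp before it had 6 to 9. AGP1 itself had 2962 reads in trf4Δ, against 5118 normalised in wild type, a difference of -0.79. YCL023C has no entry in R64, where the neighbour of AGP1 on this side is KCC4, a protein kinase gene of the opposite strand, so the gap is tandem by the deposited table only.

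The gap TAH1-YCR061W (chromosome III, 224801 to 225500) lies between TAH1, which encodes an Hsp90 cofactor, and YCR061W, and in R64 holds a replication origin but no other gene. It had 71973 reads in trf4Δ, against 2384 normalised in wild type, a difference of 4.92. Its profile was a single peak of 36099 reads in trf4Δ, against 1060 in wild type at 458 to 557 bp before the start of YCR061W, and both libraries fell off towards that start, to 170 and 88.7 reads in the last whole segment. The flanking ORFs were not raised, with -1.64 for TAH1 and -1.07 for YCR061W.

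MCH1-PSA1 (chromosome IV, 356801 to 359800), before the GDP-mannose pyrophosphorylase gene PSA1, is 3065 bp wide and in R64 holds a tRNA gene. It had 73831 reads in trf4Δ, against 2600 normalised in wild type, a difference of 4.83. The highest segment, 241 to 340 bp before PSA1, had 30245 reads in trf4Δ, against 382 in wild type, and a separate rise 741 to 840 bp before the start reached 7840 in trf4Δ and 445 in wild type. PSA1 itself differed by 0.09.

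The 10 highest and 5 lowest log2 differences were taken among the 1008 gaps with a mean of at least 64 normalised reads per segment. The highest 3 were narrow gaps that were nearly empty in wild type. HDA2-DPL1 (chromosome IV, 1052301 to 1052600), before the sphingolipid lyase gene DPL1, had 782 reads in trf4Δ, against 1 in wild type, a ratio of 582 after normalisation with a counting interval of 104 to 23015. The trf4Δ reads climbed towards the 3′ end of HDA2, a histone deacetylase subunit gene, with 3, 208 and 571 reads in the 3 segments. GUP2-POS5 (chromosome XVI, 191001 to 191400), before the mitochondrial NADH kinase gene POS5, had 922 reads in trf4Δ, against 7 (9.41 normalised) in wild type, a difference of 6.61. Of these, 445 and 462 lay in the 2 segments away from POS5 and 12 and 3 in those next to it. MSB1-IES4, before an INO80 subunit gene, followed with 757 reads in trf4Δ, against 8.06 normalised in wild type, a difference of 6.55.

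KRR1-MRC1 (chromosome III, 22201 to 22400), before the replication checkpoint gene MRC1, had 1421 reads in trf4Δ, against 21.5 normalised in wild type, a difference of 6.05. Its 2 segments had 1389 trf4Δ reads next to KRR1, a ribosome assembly gene, and 32 next to MRC1. KRR1 as a whole differed by 3.90 and MRC1 by -1.20. In YLR035C-A-MLH2 (chromosome XII, 214501 to 215400), before the mismatch repair gene MLH2, there were 16635 reads in trf4Δ, against 265 normalised in wild type, a difference of 5.97. Here the peak lay towards the gene after the gap, with 9284 trf4Δ reads at 143 to 242 bp and 3993 at 43 to 142 bp before MLH2, and MLH2 itself was higher, by 2.31. This gap holds a tRNA gene and a repeat in R64, and its 3 segments farthest from MLH2 had no read in either library.

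The rest of the 10 highest, beside YCL023C-AGP1, were MRPL13-YKR005C, IRS4-YKR018C, MRS1-YIR021W-A and TMS1-SPO71. MRPL13-YKR005C had 193 reads in trf4Δ, against 2 in wild type, a ratio of 71.8 with a counting interval of 19.6 to 597. IRS4-YKR018C was at 6.05 (978 reads in trf4Δ, against 14.8 normalised in wild type), MRS1-YIR021W-A at 5.99 (3068 and 48.4) and TMS1-SPO71, before a gene needed to form spores, at 5.94 (495 and 8.06). All 10 overlapped a CUT, as did 459 of the 594 higher gaps. CUTs and these 10 gaps were picked by the same ratio of the same reads, so the overlap is no separate result. The ORF before the gap was also more than 4-fold higher for YCL023C, at 6.51, KRR1, MRS1, at 3.75, and IRS4, at 2.15, and the ORF after it for MLH2 and for YIR021W-A, at 3.04.

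Few tandem gaps were lower in trf4Δ, and next to each of the 5 lowest lay an ORF that was more than 4-fold lower as well. Over all 6195 compared ORFs, 655 (10.6%) were more than 4-fold lower. SRX1-MDH1 (chromosome XI, 278401 to 278700), before the mitochondrial malate dehydrogenase gene MDH1, had 217 reads in trf4Δ, against 1621 normalised in wild type, a difference of -2.90, and MDH1 itself was at -2.37. RTS2-BUD21 was at -2.50, with BUD21, a ribosome assembly gene, at -2.33. ECM19-CCW14 was at -2.40, with CCW14, a cell wall protein gene, at -2.20. PEP4-KIP2 was at -2.42 (94 reads in trf4Δ, against 503 normalised in wild type). There the gene before the gap, PEP4, which encodes vacuolar proteinase A, was lower, at -2.59, and KIP2, a kinesin gene, was at 1.99. All wild-type reads of PEP4-KIP2 lay in the segment next to PEP4. In ECM19-CCW14, 479 of the 480 wild-type reads, unscaled, lay next to CCW14. RTS2-BUD21 is 1 segment long. Segments next to an ORF can share reads with it.

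YCF1-YDR133C (chromosome IV, 721301 to 723000), which starts after the vacuolar glutathione conjugate transporter gene YCF1, had 46009 reads in trf4Δ, against 339908 normalised in wild type, the most of any tandem gap there, a difference of -2.89. Almost all these reads lay in the 3 segments nearest to YDR133C, with 15339, 23956 and 6061 reads in trf4Δ, against 132503, 162541 and 41672 normalised in wild type. YDR133C itself was at -3.00. R64 does not list YDR133C, and has the pseudogene CCW22 between YCF1 and the next gene. Other gaps with many wild-type reads were YER053C-A-PIC2, at -1.87, and ACB1-CAX4, at -0.98. YER053C-A-PIC2 had 4954 reads in trf4Δ, against 18082 normalised in wild type, and ACB1-CAX4 had 6976 and 13767. In both, the ORF before the gap was lower too, with YER053C-A at -2.05 and ACB1, which encodes the acyl-CoA-binding protein, at -2.14. Without the segments next to the ORFs the 2 gaps were at -1.08 and -0.52.

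Of the 10 gaps with most trf4Δ reads, 4 besides MCH1-PSA1 that held RNA genes or repeats in R64 are given here. ADE16-AAT2 and RPL27B-TRS31, also among the 10, held snoRNA genes and are described below. Among all tandem gaps that could be placed between the same 2 ORFs in R64, 180 of 2379 held an RNA gene or repeat. USE1-SRM1, before the Ran exchange factor gene SRM1, holds a tRNA gene and long terminal repeats and had 54022 reads in trf4Δ, against 12959 normalised in wild type, a difference of 2.06. YBL100W-C-YBL100W-A overlaps a Ty2 element and had 49720 and 2335, a difference of 4.41. Copies of the element elsewhere could share these reads only if reads with several placements were kept, as the authors did for the SK1 genome. CSG2-PDX3 holds the telomerase RNA gene TLC1 beside a snoRNA gene and had 40603 and 6715, a difference of 2.60. Most of its trf4Δ reads lay near PDX3 (chromosome II), with 12398 in the segment from 307101 and 16331 in that from 307201. These segments were at 4.53 and 3.48. From 307501 to 308200 the segments were at -0.36 to 0.53, and from 308401 to 308900, nearer CSG2, at 1.57 to 3.60. Where TLC1 lies among the segments of this gap was not tested. ODC2-YOR223W, after a mitochondrial carrier gene, had 61131 and 8323, a difference of 2.88, and ODC2 itself was higher by 4.22.

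snoRNA genes stood in several of the gaps with most trf4Δ reads. In R64, 2379 of the 2580 gaps could be placed between the same 2 ORFs, and 23 of these held a snoRNA gene. All 23 passed the minimum, 8 were more than 4-fold higher (34.8%), near the 28.6% of all placed gaps, 0 were lower, and the median was 1.58. Together they had 344887 reads in trf4Δ, against 69703 normalised in wild type. The 8 were RPL12A-POL5 (SNR80, 4.56), ADE16-AAT2 (SNR30, 4.32), RPL27B-TRS31 (SNR13, 4.28), MDN1-SEN2 (SNR79, 3.51), RBA50-HLR1 (SNR84, 3.32), ODC2-YOR223W (SNR35, 2.88), CSG2-PDX3 (SNR161, 2.60) and BRE5-LYS9 (SNR49, 2.39). Others of the 23 differed little: DAS1-RPA34 (SNR128 and SNR190) had 10610 reads in trf4Δ, against 12599 normalised in wild type, a difference of -0.25, and VMA9-LDB16 (SNR43) was at -0.59.

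In RPL27B-TRS31 (chromosome IV, 1402601 to 1403300) the reads began abruptly. The 3 segments next to RPL27B had 20, 9 and 2 reads in trf4Δ, against 14.8, 12.1 and 5.38 normalised in wild type. The next 4 segments, towards TRS31, a transport complex gene, had 19162, 24490, 4601 and 1515 reads in trf4Δ and 1551, 946, 16.1 and 22.8 in wild type. The log2 differences of these 4 were thus 3.63, 4.69, 8.16 and 6.05, largest where wild type had almost no reads. TRS31 itself was at 0.94, with 522 reads in trf4Δ, against 273 normalised in wild type.

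ADE16-AAT2 (chromosome XII, 198101 to 199500) had 2 blocks of reads. Between ADE16, a purine synthesis gene, and a point 714 bp before the aspartate aminotransferase gene AAT2, the 7 segments had 5199 to 15930 reads in trf4Δ and 120 to 1426 normalised reads in wild type, with differences of 3.48 to 5.44. The second block had 14561 and 17642 reads in trf4Δ and 64.5 and 32.3 in wild type at 314 to 513 bp before AAT2, with differences of 7.82 and 9.10. Next to AAT2 the 2 last segments were at -0.18 and -0.75. SNR30, whose RNA is needed for 18S rRNA processing, is the only other gene that R64 lists in this gap.

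**Figure D4:**
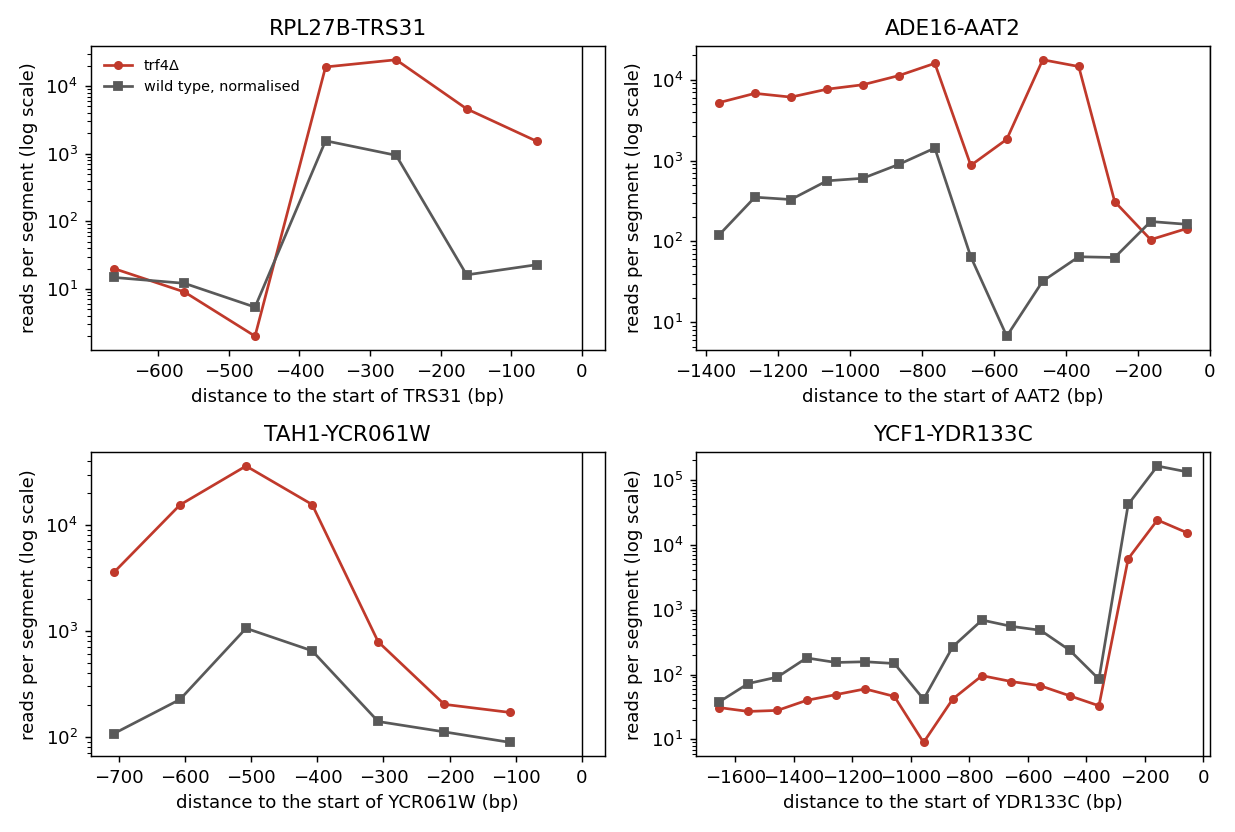
Reads per 100 bp segment (y axis, log scale) in trf4Δ and, normalised, in wild type, by distance in bp to the start of the ORF after the gap (x axis, start at 0) in 4 tandem gaps. In RPL27B-TRS31 and ADE16-AAT2 the libraries part most where wild type has few reads, in TAH1-YCR061W both have their peak in the same segment, and in YCF1-YDR133C trf4Δ lies below wild type throughout.

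Most tandem gaps, higher or not, held no other annotated gene. Of 1782 compared gaps without an RNA gene, repeat or further ORF in R64, 506 (28.4%) were higher, with a median of 0.68. This is near the 28.6% and the median of 0.71 of all 1932 compared gaps that could be placed in R64. Gaps with a tRNA gene were higher in 29 of 88 cases (median 0.97), those with a long terminal repeat or mobile element in 22 of 75 (29.3%, 0.71), those with a replication origin in 38 of 100 (38.0%, 1.13) and those with a centromere in 5 of 8 (62.5%, 2.34). Some gaps fall in several of these kinds. The widest gaps were mostly repeats and tRNA genes. LPE10-GRX5, 8814 bp wide, had 6211 reads in trf4Δ, against 1239 normalised in wild type (2.33), SPP382-TUS1 had 2617 and 3881 (-0.57), and YLR256W-A-YLR257W had 3497 and 1427 (1.29). Long stretches of these 3 gaps had no read in either library. They were 436901 to 443100 in LPE10-GRX5, 976301 to 981600 in SPP382-TUS1 and 653401 to 656700 in YLR256W-A-YLR257W. The values of these gaps thus come from the rest of their segments. Repeats lose reads where those with several placements in the genome are dropped, and the tables do not say whether they were.

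Gaps were also grouped by the gene after them, for 7 lists of genes chosen with earlier results of these data known. Before 11 glycolysis genes the median difference was 3.02, and 6 gaps were more than 4-fold higher and 0 lower, beside 28.5% higher and a median of 0.69 over all tandem gaps. The highest were those before GPM1 (phosphoglycerate mutase), with 2404 reads in trf4Δ, against 49.7 normalised in wild type (5.60), PFK1 (phosphofructokinase), with 4197 and 199 (4.40), and TPI1 (triose phosphate isomerase), with 1695 and 83.3 (4.35). The lowest was that before PYK2, a minor pyruvate kinase, with 104 and 138 (-0.41). Of 4 gaps before genes with known upstream or attenuating transcripts, 2 were higher, that before URA2, the first enzyme of pyrimidine synthesis, with 29430 reads in trf4Δ, against 899 normalised in wild type (5.03), and that before the phosphate transporter gene PHO84, with 3935 and 142 (4.79). The gaps before CLN3, a G1 cyclin gene, and before SER3, which is repressed by upstream SRG1 transcription, were at 1.41 and 1.35.

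Ribosomal protein genes had 33 compared gaps, 8 higher and 3 lower, with a median of 0.97. Over all tandem gaps 28.5% were higher and 1.97% lower, with a median of 0.69. The 33 gaps ran from the gap before RPS20, with 10855 reads in trf4Δ, against 320 normalised in wild type (5.08), that before RPL15B (5.08) and that before RPS26A (4.94) down to that before RPL2A, with 16 and 94.1 (-2.56). Genes of acetate metabolism, which meiotic cells need in sporulation medium, had 4 of 13 higher and 0 lower, with a median of 0.06. This share was near that of all tandem gaps. The highest lay before SFC1, a succinate-fumarate carrier (16199 reads in trf4Δ, against 410 normalised in wild type, 5.30), IDP3, a peroxisomal isocitrate dehydrogenase (5.01), and the gluconeogenic FBP1 (22243 and 1411, 3.98), and the lowest before CIT2 (-1.96). Genes of nuclear RNA surveillance had 4 of 13 higher, the same share, 0 lower and a median of 0.30. The highest of these, before PAP2 (3.30), borders the deleted gene itself, and is followed by those before the exosome subunit gene CSL4 (2.95) and the TRAMP helicase gene MTR4 (2.49). The lowest was before NAB3 (-1.28).

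Early meiotic genes had 3 of 10 gaps higher and 0 lower, with a median of 1.24. This share was near the 28.5% of all tandem gaps. The gap before SPO11, whose product makes meiotic DNA breaks, had 622 reads in trf4Δ, against 84.7 normalised in wild type (2.88), followed by those before SLZ1 (2.38) and RIM4, an RNA-binding regulator (2.33). The lowest was before SAE3, a strand exchange factor (-1.48). SPO11 itself differed by 0.32. Middle meiotic genes had 3 of 19 higher and 1 lower, with a median of -0.15, from the gap before GAS4, a spore wall enzyme gene (2.63), those before the cyclin gene CLB1 (2.43) and SPR1, a sporulation glucanase (2.29), down to that before the septin gene SPR28 (-2.02). In all, 4 of the 7 lists had a median above that of all tandem gaps. Without the first and last segment of each gap, which can share reads with the ORFs, the acetate median was 0.58 above that of all tandem gaps in place of 0.62 below it. The excess of the genes with known upstream transcripts was then 1.27, against 2.41 with all segments. With no read minimum, the ribosomal protein median was 0.06 below that of all tandem gaps, and the acetate median 0.04 above it.

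**Figure D5:**
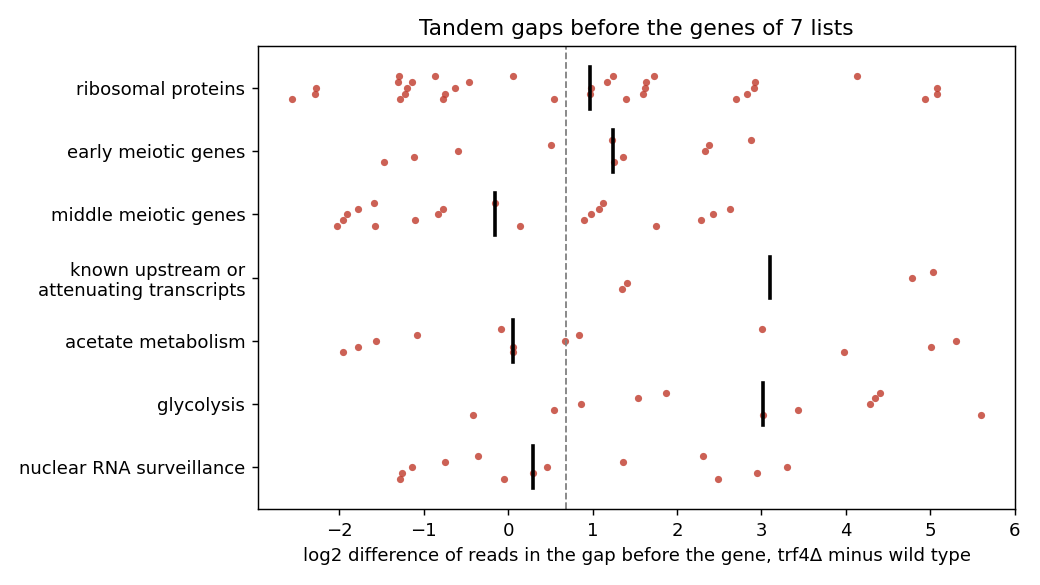
Log2 difference of the reads in the tandem gap before each gene of 7 lists (x axis), 1 point per gap past the read minimum, with the list's median as a black bar and the median of all tandem gaps, 0.69, as a dashed line. Glycolysis genes and the 4 gaps before genes with known upstream transcripts have medians of 3.02 and 3.10, while middle meiotic genes lie around -0.15.

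Several genes that the study followed border a tandem gap. The gap before DMC1, the meiotic recombinase gene, had 1048 reads in trf4Δ, against 438 normalised in wild type (1.26), while DMC1 itself was at -1.24. Of its 3 segments, that next to DMC1 was at -0.42, with 183 reads in trf4Δ, against 245 normalised in wild type, and the middle one had 98 reads in trf4Δ, against 0 in wild type. That before ACT1, the actin gene, had 1748 and 793 (1.14), with ACT1 at -1.83. Before REC102, a break factor gene, there were 141 and 99.4 (0.50), and after it 33 and 29.6 (0.16). Both REC102 gaps are 2 segments long, each next to an ORF, at 1.44 and -1.05 before REC102 and 0.42 and -0.10 after it. The gap after REC114 was at -1.09, and that after HPA3 at 0.29, or -0.04 without its edge segments. Between SPO11 and RMD11 there were 2 reads in trf4Δ, against 0 in wild type, for which no fold is given. None of these was more than 4-fold different, unlike the gap before SPO11. That gap is also 2 segments long, each next to an ORF. The segment next to SPO11 had 562 reads in trf4Δ, against 84.7 normalised in wild type, and the other had 60 against 0.

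The promoters of the genes after higher gaps were searched for short motifs on both strands, from 250 bases before to 50 after the start codon in R64. TCTTG, the Nab3 type, was found in 63.5% of 587 promoters after a higher gap, 57.2% of 1455 after another tandem gap and 60.2% of all 6001 promoters. GTAG, the Nrd1 type, was in 79.9%, 80.4% and 80.2%. TATAAA was in 50.6%, 49.3% and 45.2%, TTACCCG, the Reb1 core, in 6.30%, 5.57% and 7.08%, GGCGGC, the URS1 core of early meiotic genes, in 4.26%, 4.47% and 5.13%, and CACAAAA, of the middle sporulation element, in 8.01%, 8.18% and 7.73%. GC content was 35.0% after higher gaps and 35.6% after the others. These shares describe the letters in the S288C sequence, and the strain sequenced here was SK1.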

How the data were processed

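Cbc2-associated RNA was sequenced from 1 trf4Δ and 1 wild-type library. The deposited tables give log2 read counts that the authors made in SeqMonk, per 100 bp segment and per ORF, after Trim Galore 0.3.5 and Bowtie 0.12.7. The authors mapped to SGD1.01 for unique reads and to an SK1 sequence for reads with several placements, and the tables do not say which they hold. A value of log2 0.9 stands for 0 reads. Wild-type values of the ORF table carry a constant factor of 1.345, which was removed. Counting ignored strand, and a read over a border counts in both segments.

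Values were turned back into reads, and wild-type reads multiplied by 1.344, which makes the totals (29687088 in trf4Δ and 22092372 in wild type) equal. The 139 segments of the 37S pre-rRNA were left out. Gaps and segments with a mean below 10 normalised reads per segment, and ORFs with a mean below 64, were not compared, and 0 reads were set to a floor of 3 in a fold. A difference above 4-fold was called. With 1 library per genotype no test was made, and Wilson intervals at 95% cover counting error only. R64 was matched by neighbouring ORFs, never by SGD1.01 coordinates. Gaps named are the 10 with most trf4Δ reads, the 10 highest and 5 lowest differences at a mean of at least 64, the 5 with most wild-type reads, the widest 3, those next to genes the study followed, and the highest 3 and lowest 1 of each gene list. Others named were chosen after their values were seen. The members, gene lists and rules were chosen with earlier results of these data known. Other scalings, thresholds, minimums and gap edges were tried. Scripts were written in Python 3.11.15 with pandas 2.3.3, numpy 2.4.6 and scipy 1.17.1, with figures by matplotlib 3.10.9. They were tested on simulated reads with planted changes beyond the 4-fold cut-off, in gaps with many reads and with counting noise only. That checks the code and not the calls.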

Additional observations from a re-analysis of the deposited data

How the results depend on the processing

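Of 85 values of 16 summary results under another setting, 55 kept their size and 0 changed direction. Counts, shares and ratios of reads cannot change direction, so the 0 says little. Medians of single gene lists are not among the 85, and those of acetate and ribosomal protein genes did change side of the tandem median, as given above. The cause of the moves was not tested unless the setting itself gives it. With the median log2 difference of all nuclear segments set to 0, 903 tandem gaps were higher and 1 lower, the gap median was 1.78, and 25 segments were lower. With U1 and U2 left out of the totals the gap median was 0.81 and the tandem share 13.5% in trf4Δ and 5.53% in wild type. At 8-fold, 313 gaps were higher and 2 lower, 1705 segments higher and 34 lower, and 400 gaps had a CUT. At a minimum of 64 reads, which keeps fewer features, 18 gaps were lower, the gap median was 1.34, 1752 segments were higher and 153 lower, the median of gaps of 10 or more segments exceeded that of 1 to 3 segments by 0.97 (0.60 at a minimum of 10), and the last 300 bp of ORFs before tandem gaps exceeded those at convergent gaps by 1.80. Without the first and last segment of each gap, which leaves 1161 gaps to compare, 411 were higher and 21 lower, the gap median was 1.18, the tandem share 7.18% in trf4Δ and 2.60% in wild type, and 443 gaps had a CUT. Between ORFs with a gene name only, 336 gaps were higher and the 3′ end difference was 1.36.

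Settings chosen after seeing the data were the tandem share without YCF1-YDR133C (10.0% in trf4Δ and 3.38% in wild type, ratio of summed reads 2.97), the ratio without gaps that hold a snoRNA or other RNA gene (2.11), and the 3′ end difference at 200 to 300 bp only (1.00). Of 36 named gaps, 31 moved with the median set to 0, and 2 of them, DAS1-RPA34 (0.73) and SPP382-TUS1 (0.41), went from below to above 0. Without the edge segments 11 short ones had no value, 8 moved, among them PDA1-DMC1 (4.60, from 1 segment with 0 wild-type reads set to 3), and 1, HPA3-SIT1 (-0.04), lay below 0 in place of above it. No paired analysis was possible because each genotype has 1 library, and for the same reason no replicate could be left out. Depth limits the gaps with the highest differences, some of which had 1 or 2 wild-type reads.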
